A study of Caenorhabditis elegans with 2 samples.

Results

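The genes described here encode the subunits of the proteasome of Caenorhabditis elegans. They were chosen by name, as protein-coding genes with a symbol of the form pas-, pbs-, rpn- or rpt- and a number, which gave 33 genes of 19973 nuclear protein-coding genes. The naming rule uses no measured value, but the family was picked with earlier results of these data known. The core particle accounts for 14 of them (7 pas and 7 pbs genes) and the regulatory particle for 19 (6 rpt and 13 rpn genes).

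The data are peaks of an anti-GFP chromatin immunoprecipitation of whole L4 larvae, in 2 biological replicates of 1 hermaphrodite strain, OP470. Both carry the mutation unc-119(tm4063) on chromosome III and the integrated transgene wgIs470, which expresses the homeodomain protein DUXL-1 fused to GFP and FLAG behind its last residue (labels of the series). There is 1 group only, and no precipitation from worms without the tag is analysed here, so a peak is a place of enrichment and need not be a binding site of DUXL-1. Whole larvae mix all tissues, and the tissue from which a peak came cannot be told from these files. The labels name biological replicates of 1 strain and do not say how the cultures were separated. The number of reads behind each list is unknown.

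The proteasome degrades proteins that carry ubiquitin. Its core particle is a barrel in which rings of alpha subunits (pas genes) form the gates and rings of beta subunits (pbs genes) hold the proteolytic sites. The regulatory particle caps the barrel: its ATPases (rpt genes) unfold the substrate and its other subunits (rpn genes) bind and remove ubiquitin. In C. elegans the transcription factor SKN-1 is known to raise expression of proteasome subunit genes when the proteasome is impaired.

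Promoter peaks were found at 9 of the 33 proteasome genes (27.3%), against 6.72% of all nuclear protein-coding genes. Such a peak lies in the list that the authors thresholded on the irreproducible discovery rate (IDR), which holds 1980 peaks, and has its summit in a promoter window that reaches 1000 bp before and 200 bp past a transcript start. In the regulatory particle 6 of 19 genes had one (31.6%): the lid genes rpn-3, rpn-5 and rpn-11 and the ATPase genes rpt-2, rpt-4 and rpt-6. In the core particle 3 of 14 genes had one (21.4%): the alpha subunit genes pas-4 and pas-5 and the beta subunit gene pbs-1. Each of the 9 genes had its own peak. The share of the regulatory particle was the higher one, but with 6 and 3 genes the difference between the particles was not tested. This order also depended on the counting. With each peak counted only for its nearest start, 4 of 19 regulatory and 3 of 14 core genes remained, and the regulatory share was no longer the higher one. Each count is a description, given beside the share over all genes, and the choice of the family with earlier results known limits what its share shows. Among the 990 strongest of the 1980 peaks 4 proteasome genes had one (rpn-3, rpn-11, rpt-6 and pas-4), against 3.8% of all genes.

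The pooled signal, which is the value the authors' peak caller gave each region, ran from 67.2 at pbs-1 to 158.1 at rpn-11, with a median of 90.5 over the 9 proteasome genes. Over all 1343 genes with a thresholded promoter peak the median was 100.5 and the highest value 1119.1. None of the proteasome peaks thus came near the highest value. By pooled rank they ran from 357 at rpn-11 to 1848 at pbs-1, with 4 of the 9 genes in the stronger 990 of the 1980 peaks. The lowest signal in the list was 65.0.

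**Figure D1:**
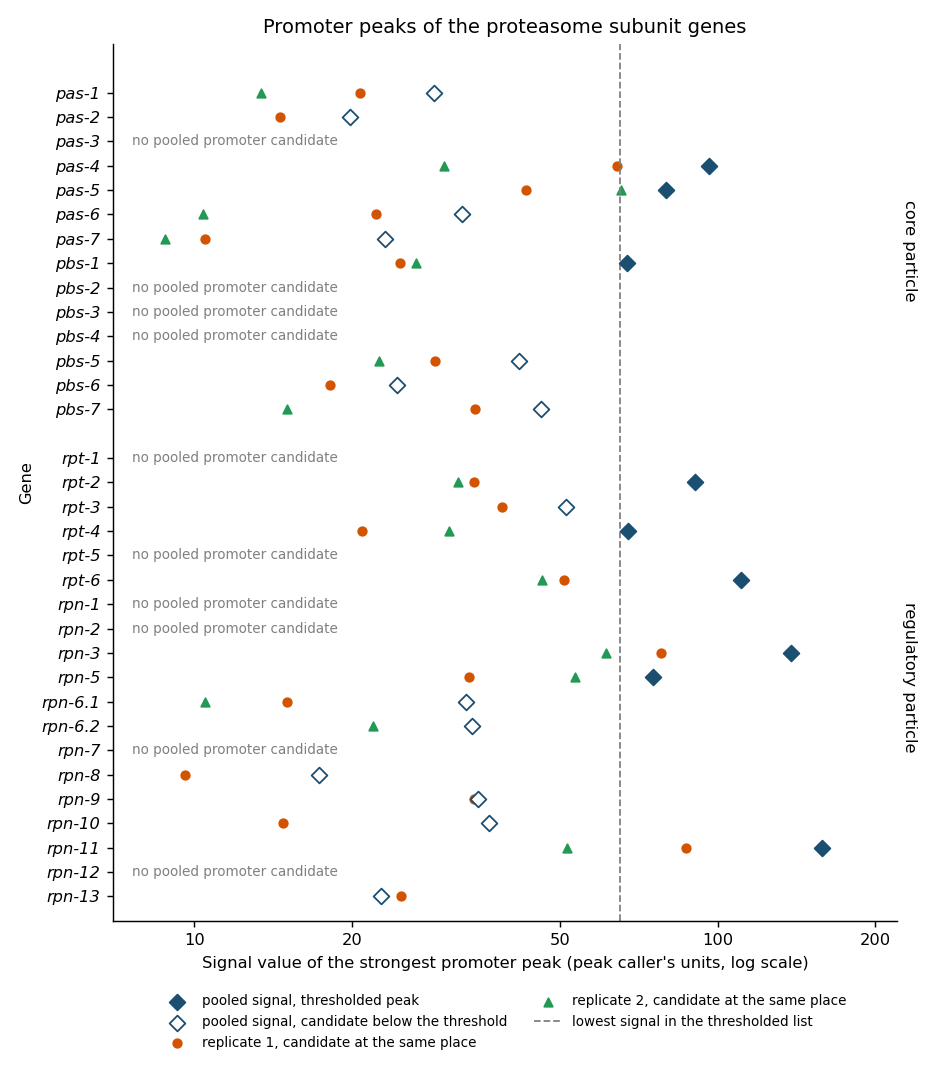
Signal value of the strongest promoter peak of each of the 33 proteasome genes, on a log scale, with the core particle above the regulatory particle. Filled diamonds are pooled signals of thresholded peaks, open diamonds those of candidates below the threshold, circles and triangles are the candidates of replicates 1 and 2 at the same place, and the dashed line is the lowest thresholded signal of 65.0. The 9 filled diamonds lie between 67.2 and 158.1, and 10 genes have no pooled candidate.

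The sequences under the summits are shown for 7 of the 9 genes, so that the letters beneath the peaks of lid, ATPase and beta ring genes can be set side by side. Each runs 5′ to 3′ along the strand of the proteasome gene and covers 50 bp on either side of the summit. Exons of protein-coding genes are left out, which shortens rpn-11 to 48 bp and rpn-5 to 68 bp. The summit of rpn-11 itself lies in the part left out, so only its upstream flank is shown. They were read from the RefSeq sequence of WBcel235, the assembly that ce11 denotes. Capitals mark 2 words on either strand: GTCAT (read as ATGAC on the other strand), which is part of the site that SKN-1 is known to bind, and TGCATT, which was picked after the sequences had been seen.
rpn-11, chrII:4044547-4044594, minus strand: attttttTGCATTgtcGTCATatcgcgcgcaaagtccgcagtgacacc
rpn-3, chrIII:8447108-8447208, plus strand: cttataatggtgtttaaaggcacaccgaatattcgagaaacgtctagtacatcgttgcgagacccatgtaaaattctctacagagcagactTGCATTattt
rpn-5, chrII:4698428-4698495, minus strand: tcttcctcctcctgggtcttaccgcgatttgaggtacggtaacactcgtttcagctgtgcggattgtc
rpt-6, chrIII:12370149-12370249, plus strand: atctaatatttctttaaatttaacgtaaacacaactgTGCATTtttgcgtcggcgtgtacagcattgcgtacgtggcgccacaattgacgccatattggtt
rpt-2, chrV:6017775-6017875, minus strand: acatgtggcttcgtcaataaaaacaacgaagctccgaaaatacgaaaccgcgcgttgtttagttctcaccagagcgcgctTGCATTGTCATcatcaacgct
rpt-4, chrII:43759-43859, minus strand: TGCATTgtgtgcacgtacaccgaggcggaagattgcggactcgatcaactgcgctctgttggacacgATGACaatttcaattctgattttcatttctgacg
pbs-1, chrIV:1709908-1710008, minus strand: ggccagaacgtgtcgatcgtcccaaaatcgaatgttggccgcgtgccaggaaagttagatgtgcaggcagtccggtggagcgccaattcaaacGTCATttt

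Among the lid genes, rpn-11 had the strongest peak. It encodes the subunit that cuts ubiquitin from the substrate (WBGene00004467, chromosome II, minus strand). Its peak at chrII:4044404-4044683 (ce11) had a pooled signal of 158.1, and candidates at the same place had 87.0 in replicate 1 and 51.5 in replicate 2. Their ranks among the 30000 candidates of a replicate were 325 and 847, so the peak was strong in both. The summit lay 2 bp inside the annotated start of rpn-11, whereas the next gene upstream, K07D4.2, ends 224 bp away on the same strand and had no thresholded promoter peak.

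The lid gene rpn-3 (WBGene00004460, chromosome III, plus strand) encodes a scaffold subunit. Its peak at chrIII:8447116-8447217 had a pooled signal of 137.8, with 77.9 in replicate 1 (rank 426) and 61.1 in replicate 2 (rank 613). This peak was narrow, at 102 bp, while the other 8 proteasome peaks had the width of 280 bp that 730 of 1028 promoter peaks shared. The summit lay 195 bp upstream of rpn-3 and 249 bp upstream of hsp-110, a chaperone gene that runs in the opposite direction. The peak cannot be assigned to either of these genes alone.

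The lid gene rpn-5 (WBGene00004461, chromosome II, minus strand) encodes another scaffold subunit. Its peak at chrII:4698305-4698584 had a pooled signal of 75.2, with 33.5 in replicate 1 (rank 2392) and 53.5 in replicate 2 (rank 791). Unlike those of rpn-11 and rpn-3, this peak was among the 1980 strongest candidates in replicate 2 only. The summit lay 18 bp upstream of rpn-5 and 276 bp upstream of scc-1, a cohesin subunit gene on the opposite strand.

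Of the 6 ATPase genes, rpt-6 had the strongest peak (WBGene00004506, chromosome III, plus strand). The peak at chrIII:12370059-12370338 had a pooled signal of 110.6, with 50.9 in replicate 1 (rank 1012) and 46.1 in replicate 2 (rank 1030). Both replicates placed it at nearly the same rank. Its summit lay 257 bp upstream of rpt-6 and in no other promoter window, the next gene upstream being the histone gene his-72 at a distance of 1405 bp.

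The ATPase gene rpt-2 (WBGene00004502, chromosome V, minus strand) had a peak at chrV:6017685-6017964 with a pooled signal of 90.5, and 34.3 in replicate 1 and 31.9 in replicate 2. With ranks of 2279 and 2229, it fell just short of the 1980 strongest candidates in both replicates. The summit lay 156 bp upstream of rpt-2 and 145 bp upstream of aps-1, a clathrin adaptor subunit gene on the opposite strand, inside the annotated non-coding RNA gene F29G9.10.

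The peak of the ATPase gene rpt-4 (WBGene00004504, chromosome II, minus strand), at chrII:43669-43948, had a pooled signal of 67.4, with 20.9 in replicate 1 (rank 6908) and 30.6 in replicate 2 (rank 2428). It was weak in both replicates, more so in replicate 1. Its summit lay 147 bp upstream of the start of the shorter annotated transcript of rpt-4, inside the longer one, and 98 bp upstream of nfyc-1. That gene lies on the opposite strand within the longer rpt-4 transcript and encodes a subunit of the transcription factor NF-Y.

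In the core particle, pas-4, the gene of an alpha ring subunit, had the strongest peak (WBGene00003925, on chromosome I, minus strand). Its peak, from 8728453 to 8728732 in ce11, had a pooled signal of 96.4, with 64.3 in replicate 1 (rank 645) and 30.0 in replicate 2 (rank 2551). Only replicate 1 had it among its 1980 strongest candidates. The pooled summit lay 106 bp upstream of pas-4 and 171 bp upstream of rpb-3, a subunit gene of RNA polymerase II on the opposite strand, and inside the non-coding RNA gene C36B1.16. The replicates' own summits lay 195 bp (replicate 1) and 121 bp (replicate 2) upstream of pas-4, so that of replicate 1 was nearer to rpb-3.

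The peak of pas-5, another alpha ring gene on chromosome I (WBGene00003926, plus strand), was the farthest from its start, at 963 bp upstream, and its summit fell inside the snoRNA gene F25H2.15. It ran from 10565247 to 10565526 and had a pooled signal of 79.8, with 43.0 in replicate 1 (rank 1456) and 65.4 in replicate 2 (rank 531). A stronger peak with a pooled signal of 179.4 overlapped it, with its summit 202 bp away and outside the promoter window of pas-5. Of the 9 proteasome peaks this was the only one that lay at most 100 bp from a small RNA gene (snoRNA, snRNA or tRNA), and the only one lost when the window was narrowed to 500 bp upstream and 100 bp downstream.

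The beta ring gene pbs-1 (WBGene00003947, chromosome IV, minus strand) encodes the homolog of a proteolytic subunit. Its peak at chrIV:1709818-1710097 had a pooled signal of 67.2, with 24.7 in replicate 1 (rank 4759) and 26.5 in replicate 2 (rank 3388). It was close to the threshold and not among the strongest candidates of either replicate. Its summit lay 213 bp upstream of pbs-1 and 307 bp upstream of K08D12.3 on the opposite strand.

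The words were then searched in the full window of 50 bp on either side of the summit, exons included and on both strands, under all 9 proteasome peaks. GTCAT was found under 5 of them (pas-5, pbs-1, rpn-11, rpt-2 and rpt-4), against 13.5% of 1071 promoter peaks and 14.1% of 1965 nuclear peaks. ATCAT, another form of that SKN-1 word, was found under 2 (pas-4 and rpt-2), against 14.9% of promoter peaks, and at rpt-2 it overlaps GTCAT. The homeodomain word TAATTA was found under 2 (pas-4 and rpn-5), against 1.77% of promoter peaks, and TGATTA under 1 (pas-4), against 2.52%. TTTCAG, the usual end of a worm intron, was found under 2 (pas-4 and rpn-5), against 7.66%.

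Each of the 4 other words searched was under none of the 9 summits. The homeodomain word TAATCC was found under 1.87% of promoter peaks and the E-box word CACGTG under 3.45%. The TATA box word TATAAA was found under 4.39%, and GAGAGA, a GA repeat, under 21.4%. A match is a run of letters and not a site shown to be bound. GC content in these windows ran from 35.6% to 56.4% with a median of 46.5%, against a median of 47.5% over the 1071 promoter peaks.

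GTCAT was also common upstream of proteasome genes that had no peak. In the 300 bp upstream of any transcript start it was found at 5 of 9 proteasome genes with a thresholded peak and at 13 of 24 without one. The share was 39.9% over all genes with a thresholded promoter peak and 42.0% over all protein-coding genes. By particle it was found at 10 of 19 regulatory particle genes and at 8 of 14 core particle genes. The shares of proteasome genes with the word were thus close, at 55.6% with a peak and 54.2% without one.

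Summits gathered close to the start. Of the 9 proteasome summits, 7 lay within 300 bp upstream of the start, against 52.7% of the 1343 genes with a promoter peak. The median distance was 156 bp upstream for the proteasome genes and 238 bp for all genes with a peak. The exceptions were pas-5 at 963 bp and rpn-11, whose summit lay 2 bp downstream.

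**Figure D2:**
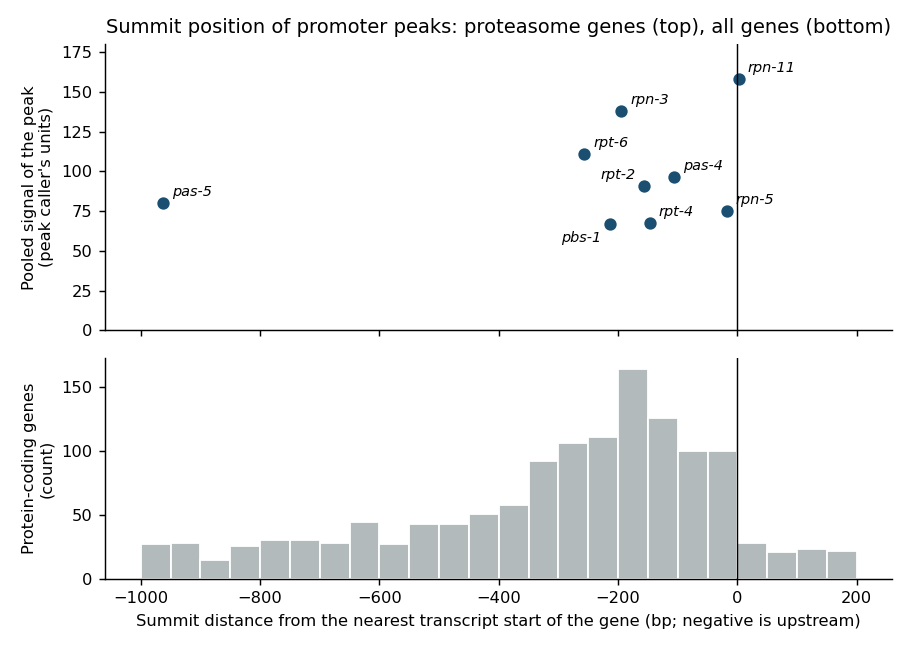
Summit distance from the nearest transcript start of the gene, in bp and negative upstream. The upper panel gives the pooled signal of the 9 proteasome genes with a thresholded promoter peak and the lower panel counts all 1343 genes with such a peak in bins. In the upper panel 7 points lie in the 300 bp before the start, with pas-5 at 963 bp upstream and rpn-11 at the start.

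Most of the proteasome peaks were shared with a neighbour. The summit of 6 of the 9 peaks lay in the promoter window of another protein-coding gene as well (rpb-3, K08D12.3, hsp-110, scc-1, aps-1 and nfyc-1), against 29.1% of the 1028 peaks that are the strongest promoter peak of some gene. That share counts each peak once, whereas the proteasome peaks were picked by gene. Counted by gene, the share over all genes would be higher, so the contrast is smaller than these 2 values show. All 6 neighbours lie on the opposite strand, and one of them, nfyc-1, overlaps the longer transcript of its proteasome gene, rpt-4. The peaks of rpn-11, rpt-6 and pas-5 were not shared. For aps-1 and nfyc-1 the neighbour's start was the nearer one to the pooled summit. The replicates' own summits lay 146 bp (replicate 1) and 156 bp (replicate 2) upstream of rpt-2. For rpt-4 they lay 104 bp (replicate 1) and 133 bp (replicate 2) upstream. In replicate 1 the neighbour's start was thus no longer the nearer one. Counting each peak only for the start nearest to its pooled summit left 7 of 33 proteasome genes, against 5.17% of all genes.

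The proteasome genes have upstream neighbours on the opposite strand more often than all protein-coding genes have. The nearest protein-coding gene upstream was on the opposite strand and at most 1000 bp away, overlaps included, for 21 of the 33 proteasome genes (63.6%) and for 21.3% of all protein-coding genes. For rpt-4 that neighbour is rpoa-49, which overlaps it, and not nfyc-1. Genes in this position had a thresholded promoter peak more often in general. Within it, 6 of 21 proteasome genes had a peak, against 12.5% of all 4247 such genes.

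For 8 proteasome genes the upstream neighbour was on the same strand within 500 bp, a spacing common in worm operons. Only rpn-11 of these 8 had a peak, against 6.7% of all 4105 such genes. Of the 4 remaining proteasome genes 2 had a peak (pas-5 and rpt-6), against 4.63% of the 11621 other genes. The share of proteasome genes was above that of all genes in each of the 3 positions, with very few proteasome genes in the last 2.

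**Figure D3:**
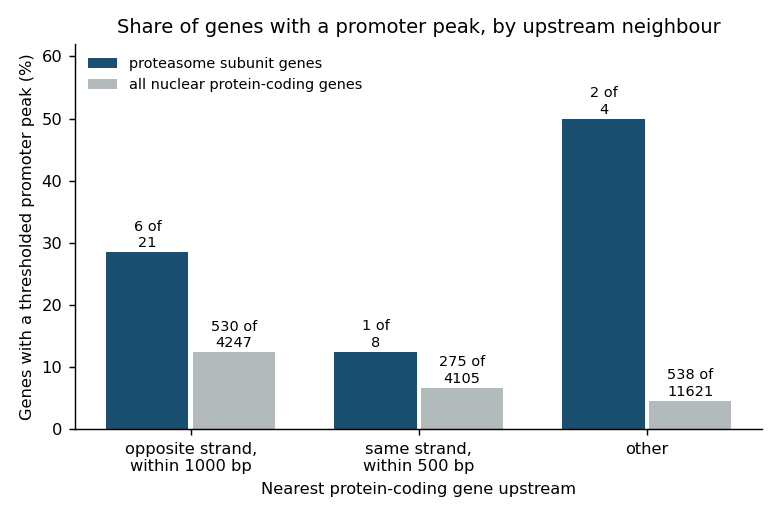
Share of genes with a thresholded promoter peak, in percent, by the strand and distance of the nearest protein-coding gene upstream, for proteasome genes (left bar of each pair) and all nuclear protein-coding genes (right bar). Numbers above the bars are genes with a peak of all genes in that position. The proteasome bars stand for 6 of 21, 1 of 8 and 2 of 4 genes.

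None of the proteasome genes lies on chromosome X, which holds 13.7% of the protein-coding genes. Chromosome I holds 10 of them, of which 2 had a peak, chromosome II 7 with 3, chromosome III 8 with 2, chromosome IV 3 with 1 and chromosome V 5 with 1. The peaks were thus spread over all 5 autosomes. Over all genes the share with a promoter peak ran from 5.41% on chromosome V to 9.55% on chromosome III.

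The replicates gave partly different proteasome genes. Each replicate's 1980 strongest candidates had a promoter summit at 6 proteasome genes, against 6.29% of all genes in replicate 1 and 6.02% in replicate 2. Both replicates had one at rpn-3, rpn-11, rpt-6 and pas-5. Replicate 1 added pas-4 and rpt-3, and replicate 2 added rpn-5 and rpn-7. With replicate 1 left out, the core particle had 1 gene (pas-5) where the thresholded list had 3. In replicate 2, rpn-7, a lid gene, had a candidate with a signal of 44.4 (rank 1107) 430 bp upstream, but it had none in replicate 1 or in the pooled list.

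Of the 9 thresholded proteasome peaks, 4 overlapped one of the 1980 strongest candidates in both replicates, against 54.6% of the 1028 promoter peaks. Those of rpt-2, rpt-4 and pbs-1 overlapped none in either replicate. The thresholded list equals the 1980 strongest pooled candidates, and these 3 peaks were among them by their pooled signal.

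**Figure D4:**
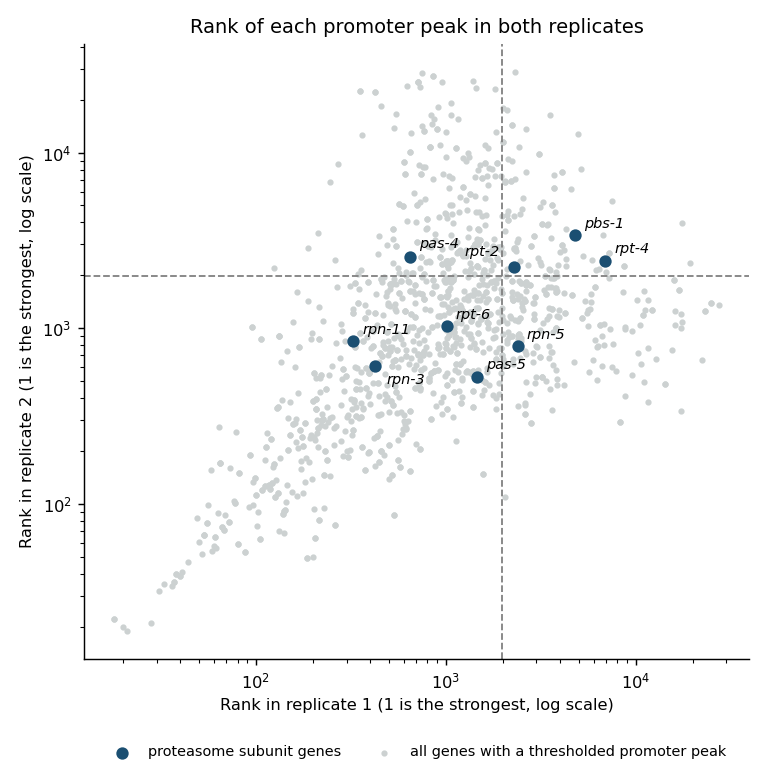
Rank of the candidate at each thresholded promoter peak in replicates 1 and 2, on log scales where 1 is the strongest of 30000, for the 9 proteasome genes and for all genes with such a peak and a candidate in both replicates (genes that share a peak share a point). Dashed lines are at rank 1980. At rank 1980 or better in both replicates are 4 proteasome genes (rpn-3, rpn-11, rpt-6 and pas-5) and 3 are worse in both (rpt-2, rpt-4 and pbs-1).

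A further 14 proteasome genes had a promoter peak only among the pooled candidates, a list that includes background regions on purpose. With them 23 of 33 genes had some candidate (69.7%), against 39.2% of all protein-coding genes. Their signals ran from 17.3 to 51.2 with a median of 32.8, against a median of 27.9 for the 6484 protein-coding genes with a candidate only. Of these 14 candidates 6 had a counterpart in both replicates, 7 had none in replicate 2 and 1 had none in replicate 1.

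In the regulatory particle the strongest of these candidates was that of rpt-3, an ATPase gene, with a pooled signal of 51.2 and rank 3244, 686 bp upstream of the start and inside the gene chtb-2. Replicate 1 had it with 38.7 (rank 1803), and replicate 2 had no candidate there. It was followed by the ubiquitin receptor gene rpn-10 (36.5), and the weakest were rpn-8 (17.3), a lid gene, and the ubiquitin receptor gene rpn-13 (22.7). The lid genes rpn-6.1, rpn-6.2 and rpn-9 lay between, with signals from 33.1 to 34.8. All 7 were thus well below the lowest thresholded signal of 65.0.

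In the core particle the strongest were pbs-7 (45.9), 154 bp upstream of the start, and pbs-5 (41.7), the gene of a proteolytic subunit, with its summit 52 bp downstream of the start. The weakest were pas-2 (19.8) and pas-7 (23.1). The genes pas-1, pas-6 and pbs-6 lay between, at 28.7, 32.5 and 24.4. The gap between the lowest thresholded core gene, pbs-1 at 67.2, and the highest candidate, pbs-7 at 45.9, was wider than that between the regulatory genes rpt-4 at 67.4 and rpt-3 at 51.2.

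No pooled candidate lay in the promoter window of 10 proteasome genes. In the regulatory particle these were rpn-1 and rpn-2, the genes of the large scaffold subunits of the base, the lid genes rpn-7 and rpn-12, and the ATPase genes rpt-1 and rpt-5. In the core particle they were pas-3, pbs-2, the gene of another proteolytic subunit, pbs-3 and pbs-4. Most of them did have a promoter candidate in a replicate's own list, and only rpn-12 and pbs-4 had none in either. In both replicates there was one for rpn-2, pbs-3 and rpt-1. That of rpn-2 had 29.5 in replicate 1 (rank 3185, 350 bp upstream) and 15.7 in replicate 2 (rank 10883, 837 bp upstream). At this depth, which is unknown, a missing candidate does not show that signal is absent.

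Of the wider ubiquitin system, 19 of 65 genes on a list of ubiquitin genes, conjugating enzymes, deubiquitinases and proteasome cofactors had a thresholded promoter peak (29.2%), again against 6.72% of all genes. This list too was drawn up with earlier results of these data known. Among ubiquitin and E1 (activating enzyme) genes 4 of 5 had one: the polyubiquitin gene ubq-1 (signal 117.0), ubq-2 (104.5), the activating enzyme gene uba-1 (66.6) and uba-5 (88.1), which activates the ubiquitin-like protein UFM1. Among E2 (conjugating enzyme) genes 7 of 22 had one: let-70 (120.9), ubc-12 (117.1), ubc-6 (94.6), ubc-25 (79.2), ubc-9 (78.7), ubc-7 (76.8) and ubc-3 (75.7). Among deubiquitinase genes 2 of 15 had one, math-33 (148.4) and usp-4 (107.9).

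On the list of cofactor and shuttle genes 2 of 10 had a peak. One was ubql-1 (149.0), a ubiquilin that delivers substrates. The other was skn-1 (76.1), which is on this list although it encodes a transcription factor, with a summit 79 bp upstream of one of its starts. The skn-1 peak had 27.2 in replicate 1 (rank 3868) and 36.7 in replicate 2 (rank 1635). Among the CDC-48 segregase and its cofactors 4 of 13 had one: cdc-48.1 (638.2), ubxn-3 (81.2), ubxn-2 (76.0) and ufd-3 (67.1). The peak of cdc-48.1 exceeded that of every proteasome gene, with 303.7 in replicate 1 and 342.3 in replicate 2 and rank 41 in each. Of the 19 peaks 9 overlapped one of the 1980 strongest candidates in both replicates, against 54.6% of the 1028 promoter peaks. One of the 9 is that of let-70, which lay within 100 bp of a small RNA gene and whose candidate with the nearest summit had only rank 22341 in replicate 2. Several peaks of this list were shared with a neighbour and cannot be assigned to the listed gene alone. These were uba-5 (with clec-53), ubq-2 (frg-1), let-70 (klc-1), ubc-6 (aka-1), ubc-12 (rbm-3.2), math-33 (erfa-3) and ubql-1 (pdi-3). Counting each peak only for its nearest start left 15 of the 65 genes, against 5.17% of all genes.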

How the data were processed

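Chromatin immunoprecipitation peaks of 2 replicates were used as deposited in build ce11. Per the deposited README files, the authors derived candidate regions in each replicate and in the pooled replicates, with a further input file that also underlies their control-normalized tracks, and deposited a list thresholded on the IDR. Which aligner and caller were run, and at which IDR cutoff, is not given in the sources used here. The signal of a region and its -log10 q value are the authors' deposited values, and their scaling is not stated. All thresholded peaks share a -log10 q of 2.43, so peaks were ordered by signal within a list. Lists in build ce10 were not used. The summit of a region is its start plus the deposited offset, counted from 1.

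Transcript starts came from Ensembl release 115 (WBcel235) and sequences from the RefSeq genome of that build; no candidate reached beyond a chromosome's end. Each gene took its strongest peak in the promoter window. A replicate's value is the overlapping candidate with the nearest summit, and a peak was found in a replicate if it shared 1 bp or more with any of its 1980 strongest candidates. With 1 group and no precipitation from worms without the tag analysed here, no test was run. The promoter assignment was tested on simulated data. The genes and lists were chosen with earlier results of these data known. Every proteasome gene is accounted for, and genes outside the family are named where they share a peak or are on the cofactor list with a peak. The tools were pandas 2.3.3 and numpy 2.4.6 under Python 3.11.15, with figures from matplotlib 3.10.9. Alternatives are given in the closing section.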

Additional observations from a re-analysis of the deposited data

How the results depend on the processing

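The count of 9 proteasome genes was 4 among the 990 strongest thresholded peaks (1 core, 3 regulatory), where all genes were at 3.8%. These 4 are rpn-3, rpn-11, rpt-6 and pas-4. With 1 replicate at a time it was 6 in either case, with 1 to 2 core genes (1 without replicate 1) and 4 to 5 regulatory genes. The cofactor count of 19 was 9 in the 990 strongest peaks and 15 to 16 with 1 replicate. Every other setting for these 4 counts stayed within 1.5 times: a window of 500 bp upstream and 100 bp downstream, any overlap of peak and window, no peaks at small RNA genes, nearest start only and, chosen after seeing the data, counting the first gene of a same-strand run. Over all genes the share was 5.11%, 7.11%, 6.16%, 5.17% and 8.86% in these settings, in the order given. The 4 proteasome peaks found in both replicates were 2 with a reciprocal overlap of 50% and 7 with 2 times as many top candidates. No paired analysis was possible because there is only 1 group. Depth in reads is unknown, so no limit of detection can be given.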

Other observations

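The word TGCATT, picked after the sequences under the proteasome peaks had been seen, was found within 50 bp of the summit, on either strand, at 5 of 9 proteasome genes (rpn-3, rpn-11, rpt-2, rpt-4 and rpt-6), against 9.52% of 1071 promoter peaks and 7.43% of 1965 nuclear peaks. All 5 are regulatory particle genes, to which 6 of the 9 peaks belong. In the 300 bp upstream of a transcript start it was found at 7 of the 9 proteasome genes with a thresholded peak (the 5 above, rpn-5 and pbs-1), at 7 of the 24 without one, at 28.9% of all genes with a thresholded promoter peak and at 23.1% of all protein-coding genes. At rpt-2 it is directly followed by GTCAT, and at rpn-11 it lies 3 bp from it. Since the word was chosen on these same peaks, its count there is a description with no test.

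Of the 24 proteasome genes without a thresholded peak, 7 follow another gene on the same strand within 500 bp. In none of these 7 did the first gene of the row have a thresholded promoter peak, against 11.1% of 3830 such genes over the genome. With only 7 genes, finding none is close to that share, and no difference can be read from it. Within the row of pbs-5, however, the gene directly upstream, K05C4.2, which ends 110 bp away, did have a thresholded promoter peak, with a pooled signal of 167.8 and rank 446 in replicate 1 and 319 in replicate 2.

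Upstream of pas-5 the snoRNA gene F25H2.15 carries the pooled summit counted for pas-5 (pooled signal 79.8). A summit with a stronger pooled signal (179.4) lies 202 bp away, with 85.1 in replicate 1 and 59.7 (rank 644) in replicate 2. The candidate counted for pas-5 had 43.0 in replicate 1 but 65.4 (rank 531) in replicate 2, where it was the stronger of the pair. The replicates' own summits for pas-5 lay 924 bp (replicate 1) and 808 bp (replicate 2) upstream of its start.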
